A study of Saccharomyces cerevisiae with 24 samples.

Results

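The 10 genes described here encode enzymes that make isoleucine, valine and leucine, the branched-chain amino acids of Saccharomyces cerevisiae. They were chosen by gene name, out of 5493 named on the arrays, with earlier results of these data known. Each had 1 of the 6350 probes. The members are ILV1 (YER086W), ILV2 (YMR108W), ILV6 (YCL009C), ILV5 (YLR355C), ILV3 (YJR016C), LEU4 (YNL104C), LEU9 (YOR108W), LEU1 (YGL009C), BAT1 (YHR208W) and BAT2 (YJR148W). LEU2, the remaining enzyme of the leucine branch, is not a member and is given for comparison. Of the 10 probes 9 had enough values to be tested. ILV1 had a value on 19 of 24 arrays, with 1 in the prp17 null strain, and was tested only under a looser filter.

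The study followed SS330 and 3 splicing mutants, the prp17 null, prp17-1 and prp22-1 strains, as cultures were moved from 23C to 37C. PRP17, listed today as CDC40, and PRP22 act at and after the second catalytic step of splicing. Samples were taken from each at 23C, called 0 min, and at 37C once 5, 15, 30, 60 and 120 min had passed. A single array was hybridised for each strain and time, with total RNA set against yeast genomic DNA. SS330 is taken as the comparison strain. The labels do not state its genotype, the genotypes of the mutants beyond the named allele, or the growth medium, so whether leucine, isoleucine or valine was supplied is not known here.

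In yeast the isoleucine and valine routes share most of their enzymes. Threonine deaminase, encoded by ILV1, supplies the isoleucine route, and acetohydroxyacid synthase, with the catalytic subunit ILV2 and the regulatory subunit ILV6, begins the shared steps. The reductoisomerase ILV5 and the dehydratase ILV3 follow, and leucine synthesis leaves the valine route through the isopropylmalate synthases LEU4 and LEU9, the isomerase LEU1 and the dehydrogenase LEU2. The last step is shared by the aminotransferases BAT1 in mitochondria and BAT2 in the cytosol. The pathway is controlled by the transcription factors LEU3, which responds to isopropylmalate, and GCN4, the activator of the general amino acid response, whose own level is set largely by translation.

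All values are taken as log2 ratios of RNA over genomic DNA after each array was centred on its median. The base is assumed, and under it a difference of 1 is a 2-fold change. A probe's level has no known zero, and levels are not compared between genes. An array held a value for 77.3% to 98.4% of probes, and the lowest shares were on prp22-1 at 15 min and on prp17 null at 30, 5 and 0 min. The SD over probes was 0.362 to 0.519 at 23C and 0.418 to 1.05 at 37C. It was widest in prp17 null at every time but 15 min, when it was 0.816 there, 0.846 in prp17-1 and 0.906 in prp22-1. CDC40 was lower in the prp17 null strain than in SS330 at 37C (-1.59 ± 0.16, SE, limma adjusted p = 1.19e-05), and HSP104 (2.44) and SSA4 (2.45) rose with heat. These genes were used to read the direction of the ratio, so they are no independent check of the labels. PRP22 in prp22-1 did not pass (0.08 ± 0.17, SE, adjusted p = 0.845). The number of arrays limits the precision. Each strain was followed as 1 time course, its times were treated as repeats in the tests, and the effect of a strain and that of its single course cannot be told apart. The p-values measure only the spread between these arrays.

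After the shift to 37C 5 of the 9 tested members fell. ILV5 (-1.74 ± 0.36, SE), ILV3 (-1.44 ± 0.19), BAT1 (-0.90 ± 0.14), LEU9 (-0.83 ± 0.19) and LEU1 (-0.67 ± 0.13) fell, as the mean of the 5 times at 37C against 23C over the 4 strains, ILV5 excepted. The change of ILV5 rests on prp17-1 and prp22-1, since its probe had no value at 23C in SS330 or prp17 null. Their limma adjusted p-values were 0.0021, 5.5e-05, 0.000207, 0.00297 and 0.000938. ILV2 (0.03 ± 0.12), ILV6 (-0.35 ± 0.18), LEU4 (0.24 ± 0.15) and BAT2 (0.27 ± 0.16) did not pass, with adjusted p between 0.144 and 0.872. Thus 5 members were lower and 0 higher, with 5 at an unadjusted p under 0.05, where 30.7% of the 5487 tested probes passed, 16.9% lower and 13.8% higher. The median of the 9 was -0.67, against 0.00 over all tested probes. Since 3 of the 4 strains are mutants, this is not the heat response of SS330 alone.

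**Figure D1:**
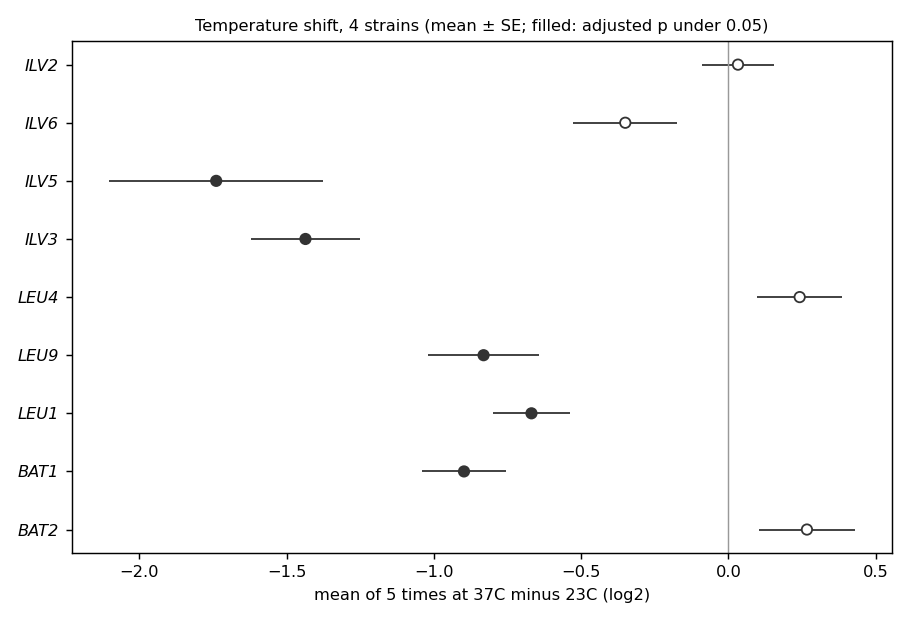
The horizontal axis is the mean log2 ratio over the 5 times at 37C minus that at 23C, for the 9 tested members from the first step (top) to the last, with SE as bars. ILV5, ILV3, LEU9, LEU1 and BAT1 lie left of 0 with filled points (adjusted p under 0.05), and ILV2, ILV6, LEU4 and BAT2 have open points.

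ILV3, the dihydroxyacid dehydratase, fell in each strain. In SS330 its centred log2 ratio was -0.13 at 23C, then -1.29, -1.72, -0.89, -0.58 and -0.50 at 5, 15, 30, 60 and 120 min. In prp17 null it was -0.44, then -1.47, -1.94, -2.19 and -1.81, with no value at 120 min. In both strains every value at 37C was below that at 23C, and SS330 came back part of the way after 15 min. In prp17-1 it was -0.25, then -1.36, -2.23, -2.05, -1.41 and -1.86, and in prp22-1 0.00, then -1.66, -2.81, -1.60, -1.50 and -2.18. The lowest value of all was that of prp22-1 at 15 min, on the array with the lowest share of probes with a value.

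ILV5, the acetohydroxyacid reductoisomerase, also has a role in the maintenance of mitochondrial DNA. Its probe had no value at 23C in SS330 or prp17 null, so the change from 23C rests on prp17-1 and prp22-1. In prp17-1 it was -0.44 at 23C, then -2.30, -2.87, -1.62 and -1.73 at 5, 15, 60 and 120 min, and in prp22-1 it was 0.47, then -1.47, -0.95, -1.29, -1.36 and -1.85. Both strains were lower at each measured time at 37C than at 23C. At 37C SS330 had -1.60, -0.90, -0.35, -0.55 and -0.36, and prp17 null had -3.08, -2.12, -2.27, -2.02 and -3.79. The prp17 null values lay below all 5 SS330 values. Without the prp22-1 arrays the shift of ILV5 was -1.60 with an adjusted p of 0.0695, and without the strain as a block it was -1.70 with an adjusted p of 0.0666.

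The genes of the first shared step did not pass for the shift. ILV2, the catalytic subunit of acetohydroxyacid synthase, was 0.16 in SS330 at 23C and 0.30, -0.02, 0.40, 0.29 and 0.41 at the 5 times. It was 0.59 in prp17-1 at 23C and between 0.33 and 0.69 at 37C, and 0.56 in prp22-1 at 23C and between 0.22 and 0.51 at 37C. In prp17 null it was 0.77 at 23C and 1.29, 1.36, 1.07 and 0.56 at 15, 30, 60 and 120 min. ILV2 thus moved by at most 0.59 from its own 23C value on the arrays that measured it. Under quantile normalization, which widens the narrower arrays at 23C, ILV2 turned to -0.40 for the shift (adjusted p = 0.0483).

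ILV6, the subunit that confers feedback inhibition by valine, was 0.43 in SS330 at 23C and -0.52, -0.30, 0.33 and 0.23 at 5, 30, 60 and 120 min. In prp17 null it was 0.62 at 23C and 0.66, 0.71, 0.55, 0.54 and -0.01. The early dip seen in SS330 was thus not seen in prp17 null, whose values stayed near that at 23C up to 60 min. In prp17-1 it was 0.45, then 0.26, -0.09, 0.09 and 0.05 at 5, 15, 60 and 120 min, and in prp22-1 0.23, then -0.83, -0.20, 0.44 and 0.14 at 15, 30, 60 and 120 min. Under quantile normalization ILV6 passed for the shift at -0.64 (adjusted p = 0.00943).

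ILV1, threonine deaminase, was uneven. In SS330 it was 0.00 at 23C and -0.23, -1.53, -0.29, -1.59 and 0.01, so that the low times 15 and 60 min stood beside times near 0. In prp17-1 the values at 37C lay between -0.55 and 0.06, and in prp22-1 between -0.63 and -0.30, against 0.17 and -0.20 at 23C. The single prp17 null value was -1.12 at 60 min. With probes admitted at 12 arrays, ILV1 did not pass for the shift (-0.47 ± 0.22, SE, adjusted p = 0.13).

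The leucine branch has a pair of isopropylmalate synthases that differed in their course. LEU9, the minor synthase, was 0.02 in SS330 at 23C and -1.18, -0.91, -0.05, -0.04 and 0.10 after the shift. In prp17 null it was 0.04, then -1.09, -1.12, -0.99, -0.68 and -1.66, in prp17-1 -0.05, then -1.21, -1.45, -0.60, -0.36 and -1.0, and in prp22-1 -0.07, then -0.48, -0.94, -0.66 and -1.31 from 15 min on. Every measured mutant value at 37C was below that at 23C, and in SS330 LEU9 was close to its 23C value from 30 min on. LEU4, the major synthase, which leucine inhibits, was 0.11 in SS330 at 23C and 0.42, 0.29, 1.00, 0.68 and 0.75 at 37C, above the start on all 5 arrays. Its 37C values were 0.21 to 0.90 in prp17 null, -0.10 to 0.43 in prp17-1 and -0.26 to 0.44 in prp22-1, from 0.12, -0.02 and 0.25 at 23C. The change of LEU9 from 23C was below that of LEU4 on 19 of the 19 arrays at 37C that measured both, by a median of 0.97 on the log2 scale. That count is a description with no test, since the arrays of a strain share their 23C array. The probe sequences were not used here, and signal shared between related copies was not tested.

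LEU1, isopropylmalate isomerase, was 0.21 in SS330 at 23C and -0.69, -0.97, -0.60, -0.15 and -0.09 after it. In prp17 null it was 0.03, then -0.22, -0.51, -0.52, -0.82 and -0.83. The lowest times of SS330 were the early ones and those of prp17 null the late ones. In prp17-1 it was 0.17, then -0.26, -0.77, -0.70, -0.10 and -0.31, and in prp22-1 -0.22, then -0.95, -1.35, -1.09, -0.72 and -0.80. LEU2, whose enzyme follows that of LEU1, did not pass for the shift (-0.11 ± 0.12, SE, adjusted p = 0.502).

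The aminotransferases formed the other pair with unlike courses. BAT1, the mitochondrial enzyme, was 0.78 in SS330 at 23C and -1.06, -0.98, -0.10, 0.10 and 0.22 at 37C. In prp17 null it was 0.16, then -0.38, -0.71, -0.71, -0.28 and -0.47, in prp17-1 0.39, then -0.42, -1.05, -0.44, -0.08 and -0.33, and in prp22-1 0.09, then -0.94, -1.19, -0.56, -0.58 and -0.92. All 20 values at 37C were below the 23C value of their strain. BAT2, the cytosolic enzyme, rises in yeast as cells leave rapid growth. It was 0.84 in SS330 at 23C and 1.21, 1.51, 1.40, 0.98 and 0.87 at 37C. It was above its 23C value on all 5 arrays in SS330, prp17 null and prp17-1, and below it on 4 of 5 in prp22-1. The prp22-1 strain began at 1.87, higher than any other strain at 23C, and stood at 1.74, 1.60, 1.95, 1.21 and 1.07 at 37C. The change of BAT1 was below that of BAT2 on 20 of 20 arrays at 37C, by a median of 1.08, again a description with no test. BAT2, which did not pass for the shift, went from 0.27 to -0.56 under quantile normalization.

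**Figure D2:**
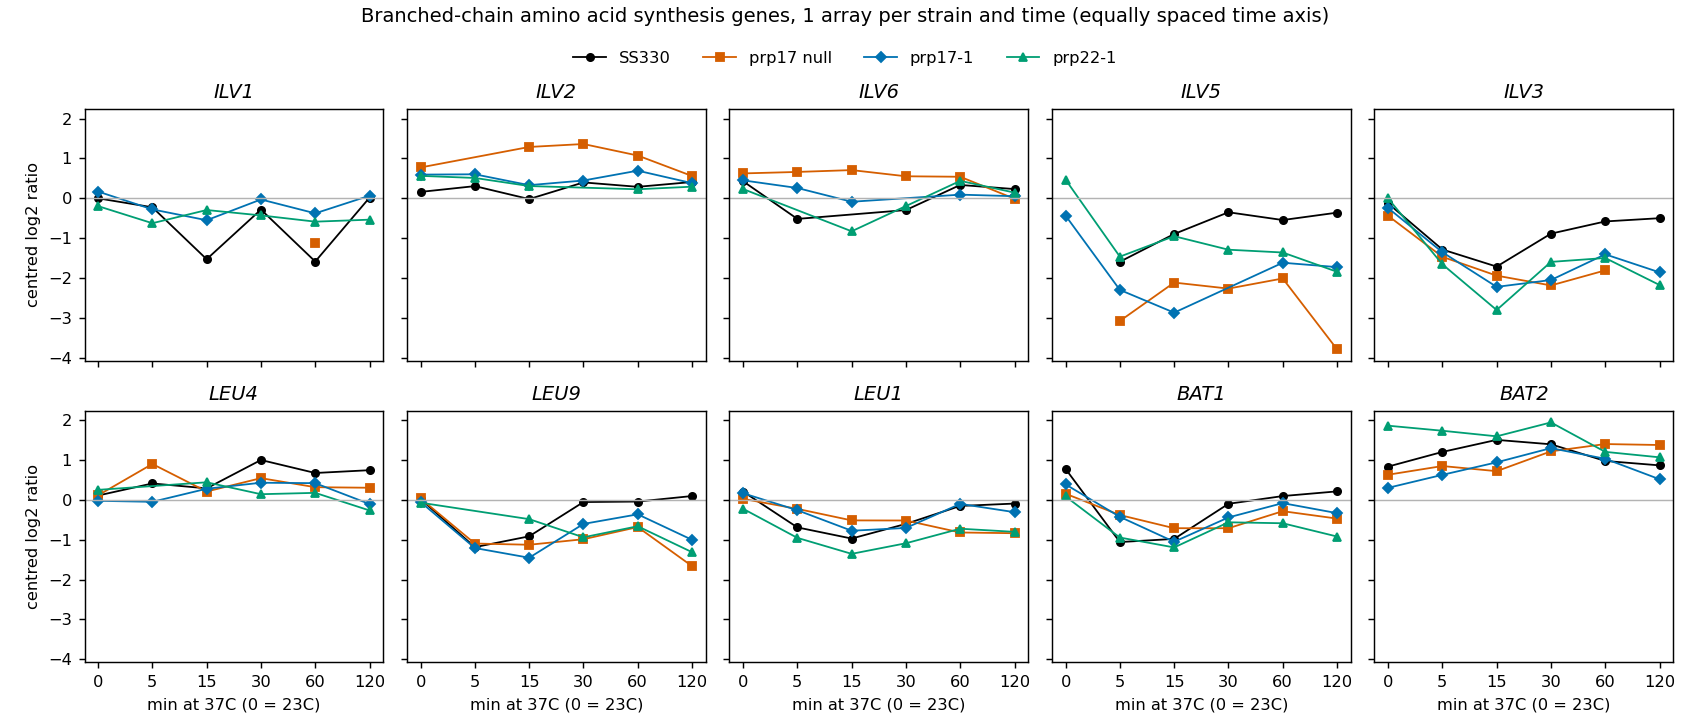
Each panel is 1 gene, with minutes at 37C on an equally spaced axis (0 is 23C) and the centred log2 ratio on the vertical axis, 1 point per array and 1 line per strain; gaps in values are bridged by the line. In SS330, ILV3, LEU9, LEU1 and BAT1 are lowest at 5 or 15 min and higher again by 120 min, while the mutant lines for LEU9 end lower, at -1.66 to -1.0 at 120 min. ILV3 ends at -1.86 in prp17-1 and -2.18 in prp22-1, and prp17 null has no value for it at 120 min.

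The calls varied with time at 37C. Of the 9 tested members 5, 5, 4, 1 and 5 were lower than at 23C at the 5 successive times (limma, adjusted p under 0.05), where 14.6%, 17.7%, 9.70%, 2.61% and 9.95% of all tested probes were lower. The gene that passed at 60 min was ILV3 (-1.12 ± 0.24, SE, adjusted p = 0.0121). BAT1 moved from -1.34 at 15 min to -0.57 at 60 min, and LEU9 from -1.17 at 5 min to -0.42 at 60 min and -0.95 at 120 min. Over the measured members of SS330 the median change was -0.90, -1.06, -0.28, -0.09 and 0.02 at these times. The last time gave a median of -0.62 for prp17 null, -0.44 for prp17-1 and -0.69 for prp22-1. All 10 measured members of prp22-1 and 9 of 10 in prp17-1 were then below their 23C values, against 4 of 9 in SS330 and 5 of 7 in prp17 null. These counts rest on 1 array at 23C per strain.

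The strains were compared at 37C as the mean difference over the 5 times, with the time as a block. In the prp17 null strain ILV5 was lower than in SS330 (-1.90 ± 0.30, SE, limma adjusted p = 0.000429), with a mean of -2.66 ± 0.76 (SD over time points, n = 5) against -0.75 ± 0.52 (SD, n = 5). ILV3 (-0.84 ± 0.22, adjusted p = 0.00944) and LEU9 (-0.69 ± 0.23, adjusted p = 0.029) were lower too. ILV2 was higher (0.82 ± 0.15, adjusted p = 0.00148), above SS330 on all 4 arrays at 37C that measured it. The other subunit of the enzyme, ILV6, was at 0.61 ± 0.23 and did not pass (adjusted p = 0.0611). BAT1 (-0.15), BAT2 (-0.08), LEU1 (-0.08) and LEU4 (-0.17) did not pass, with adjusted p of 0.464 to 0.772. So 3 of 9 members were lower and 1 higher, where 34.0% of all tested probes passed, 19.4% lower and 14.6% higher. The number of member calls is thus near the background. At 23C ILV2 was already 0.61 above SS330 and ILV3 0.31 below it, while LEU9 differed by 0.02. ILV5 had no value at 23C in either strain, so whether its difference was there before the shift is not known.

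ILV5 passed in every alternative that measured it, and the other calls did not. Its size varied from -2.45 to -1.20, and it was smallest under quantile normalization (-1.20, limma adjusted p = 0.00278). With only the arrays of prp17 null and SS330, ILV5 passed (1 member in all), while ILV3 (-0.73, adjusted p = 0.0866), ILV2 (0.80, adjusted p = 0.0508) and LEU9 (-0.69, adjusted p = 0.101) did not. Leaving out the array at 30, 60 or 120 min of either strain took LEU9 over the threshold, with an adjusted p of up to 0.104. Without time as a block LEU9 did not pass (adjusted p = 0.0616), and without the 4 arrays with the lowest share of values ILV3 did not (-0.80, adjusted p = 0.054). Under quantile normalization ILV3 (-0.30, adjusted p = 0.153), ILV2 (0.44, adjusted p = 0.0624) and LEU9 (-0.40, adjusted p = 0.148) did not pass, and BAT2 did (-0.59, adjusted p = 0.00954). Split by time, the early arrays (5, 15 and 30 min) gave ILV6 at 1.13 (adjusted p = 0.0212), ILV3 at -0.57 (adjusted p = 0.171) and LEU9 at -0.35 (adjusted p = 0.397). The arrays at 60 and 120 min gave LEU1 at -0.71 (adjusted p = 0.0112), BAT1 at -0.53 (adjusted p = 0.0435) and ILV2 at 0.47 (adjusted p = 0.103). ILV6 also passed without centring (0.67, adjusted p = 0.0346) and with the trend and robust settings of limma (adjusted p = 0.0423).

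In the prp17-1 strain ILV5 was lower than in SS330 (-1.31 ± 0.33, SE, limma adjusted p = 0.0412), and so was ILV3 (-0.79 ± 0.21, adjusted p = 0.0493). These 2 of 9 stood where 3.17% of all tested probes passed, 2.22% lower and 0.948% higher, and 0 members were higher, with 4 at an unadjusted p under 0.05 in either direction. LEU9 (-0.51 ± 0.23, adjusted p = 0.251) and LEU4 (-0.43 ± 0.17, adjusted p = 0.193) did not pass, nor did ILV2 (0.21 ± 0.14, adjusted p = 0.443). Both calls were close to the threshold. Leaving out the SS330 array at 15, 30, 60 or 120 min, any prp17-1 array at 37C, the prp17 null array at 5 min or the prp22-1 array at 5 or 60 min ended the call of ILV3 (adjusted p up to 0.17). That of ILV5 ended without the same SS330 arrays, the prp17-1 array at 5, 15, 30 or 60 min or the prp22-1 array at 5 or 30 min (adjusted p up to 0.151). ILV5 had no value on the prp17-1 array at 30 min. Leaving that array out changed only the moderation and adjustment shared with other probes, not the ILV5 estimate. Without time as a block neither ILV3 (adjusted p = 0.164) nor ILV5 (-1.38, adjusted p = 0.0545) passed, and without the 4 arrays with the lowest share of values ILV5 did not (-1.30, adjusted p = 0.0542). Under quantile normalization ILV3 was -0.36 (adjusted p = 0.0998) and LEU4 passed at -0.61 (adjusted p = 0.0485).

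In the prp22-1 strain ILV3 was lower than in SS330 (-0.95 ± 0.21, SE, limma adjusted p = 0.0148), below SS330 at each of the 5 times, with means of -1.95 ± 0.55 and -0.996 ± 0.51 (SD over time points, n = 5 each). It was the 1 member of 9 to pass, where 3.48% of all tested probes passed, 1.68% lower and 1.80% higher, and 4 had an unadjusted p under 0.05. Without the SS330 array at 30, 60 or 120 min or the prp22-1 array at 120 min ILV3 did not pass (adjusted p up to 0.0628). Nor did it without time as a block (adjusted p = 0.0664) or without the 4 arrays with the lowest share of values (-0.85, adjusted p = 0.0521), among them the prp22-1 array at 15 min, where LEU4 passed instead (-0.72, adjusted p = 0.0194). At 60 and 120 min alone BAT1 passed at -0.91 (adjusted p = 0.0256), and under quantile normalization LEU4 passed at -0.74 (adjusted p = 0.034). ILV5 (-0.63 ± 0.30, adjusted p = 0.281), LEU9 (-0.52 ± 0.24, adjusted p = 0.28), LEU4 (-0.50 ± 0.18, adjusted p = 0.153), LEU1 (-0.48 ± 0.16, adjusted p = 0.118) and BAT1 (-0.48 ± 0.17, adjusted p = 0.144) were negative without passing, and BAT2 was 0.32 ± 0.18 (adjusted p = 0.371). All 3 strain comparisons share the SS330 arrays, so the low ILV3 in each is not independent. At 23C ILV3 in prp22-1 was 0.12 above SS330, and BAT2 was 1.03 above it.

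**Figure D3:**
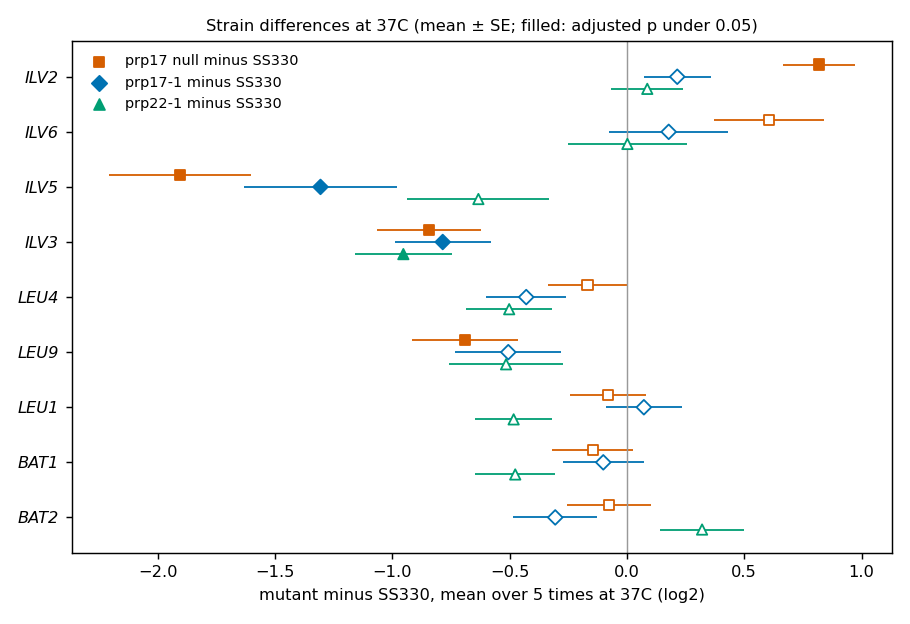
The horizontal axis is the mutant minus SS330 in log2 ratio, averaged over the 5 times at 37C, with SE as bars, for the 9 tested members and 3 mutants. Filled points (adjusted p under 0.05) are ILV2, ILV5, ILV3 and LEU9 for prp17 null, ILV5 and ILV3 for prp17-1 and ILV3 for prp22-1, and all of them share the SS330 arrays.

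The test of whether the change from 23C to 37C differed from that of SS330 called 0 of 8 testable members in each mutant (limma), with 0, 0 and 1 at an unadjusted p under 0.05 for prp17 null, prp17-1 and prp22-1. It rests on 1 array at 23C per strain and called 0 probes of all those tested (0%), with 8 members tested because ILV5 lacked a 23C value in SS330. The member with the unadjusted p under 0.05 was ILV3 in prp22-1 (-1.08 ± 0.50, SE, adjusted p = 1). ILV3 was -0.53 ± 0.51 in prp17 null and -0.67 ± 0.50 in prp17-1 by the same test. BAT1 in prp17 null was 0.48 ± 0.42 (adjusted p = 0.863), and under quantile normalization it was 1.66 and passed (adjusted p = 0.0211).

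The late times, 60 and 120 min, were set against the early times of 5, 15 and 30 min in each strain. From early to late SS330 moved up in ILV3 (0.76), LEU9 (0.75), BAT1 (0.87), LEU1 (0.63), ILV6 (0.69) and ILV5 (0.49) and down in BAT2 (-0.45). In prp17 null the same difference was 0.06 for ILV3, -0.10 for LEU9, 0.22 for BAT1, -0.41 for LEU1, -0.38 for ILV6, -0.41 for ILV5 and 0.46 for BAT2. The test of prp17 null against SS330 passed for LEU1 (-1.04 ± 0.20, SE, limma adjusted p = 0.0167), ILV6 (-1.15 ± 0.29, adjusted p = 0.0493) and BAT2 (0.91 ± 0.24, adjusted p = 0.047). So 2 of 9 members were lower and 1 higher, where 4.47% of the probes tested passed, 3.09% lower and 1.39% higher. The median of the 9 was -0.85, against 0.04 over all probes. With only the arrays of both strains 0 members and 0 probes passed. LEU1 failed without the SS330 array at 5, 15 or 120 min or the prp17 null array at 120 min (adjusted p up to 0.187). ILV6 lost its call in 17 of 24 fits that left out 1 array and BAT2 in 16 of 24, among them all but 1 array of SS330 at 37C for BAT2 and every such array for ILV6. ILV6 had no value in SS330 at 15 min, prp17-1 at 30 min or prp22-1 at 5 min, so leaving out those arrays could not change its own estimate. Under quantile normalization BAT2 was 0.09 (adjusted p = 0.896), while LEU1 (-0.89, adjusted p = 0.0114) and ILV6 (-1.21, adjusted p = 0.0226) still passed.

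In prp17-1 and prp22-1 this late test called 0 of 9 members each (limma, 1 and 1 at an unadjusted p under 0.05), where 0% and 0.0182% of the probes tested passed in either direction. Those members were ILV6 in prp17-1 (-0.86 ± 0.31, SE, adjusted p = 0.537) and BAT1 in prp22-1 (-0.72 ± 0.31, adjusted p = 0.479). LEU9 in prp22-1 was -0.92 ± 0.44 (adjusted p = 0.543).

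**Figure D4:**
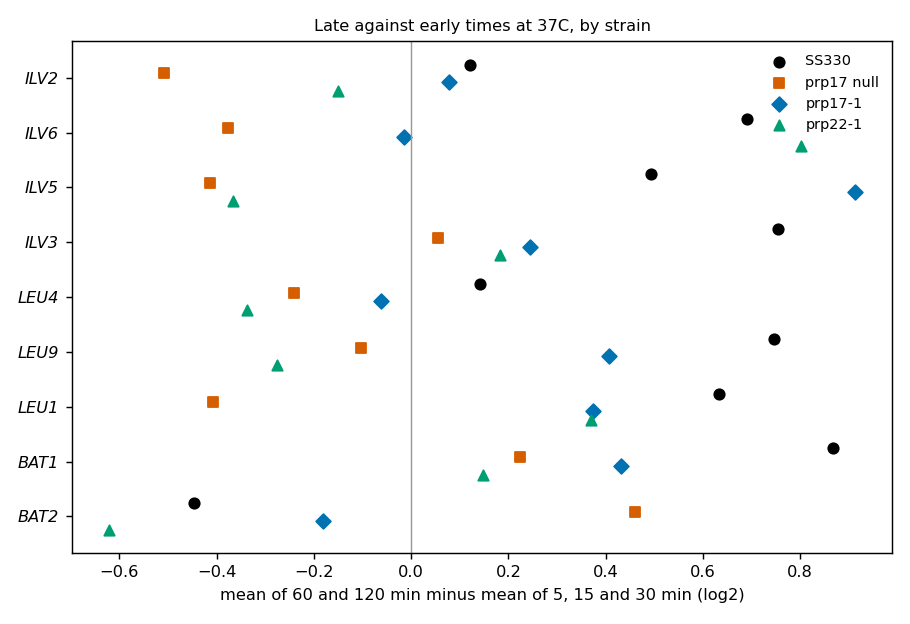
The horizontal axis is the mean of 60 and 120 min minus the mean of 5, 15 and 30 min in log2 ratio, 1 point per strain and tested member, each from up to 5 arrays and with no error bar. SS330 lies at 0.49 to 0.87 for ILV6, ILV5, ILV3, LEU9, LEU1 and BAT1, prp17 null lies at -0.41 to 0.22 for the same genes, and for BAT2 SS330 is at -0.45 and prp17 null at 0.46.

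LEU2 was lower in prp17 null than in SS330 at 37C (-0.61 ± 0.13, SE, limma adjusted p = 0.00257), below it on all 5 arrays, and it was lower at 23C too. Before the shift SS330 stood at 0.71 and prp17 null at -0.49, with prp17-1 (0.08) and prp22-1 (0.34) between them. LEU2 is also a common selection marker, and whether the strains differ at this locus is not given in the sources used here. In prp17-1 (-0.26 ± 0.13, adjusted p = 0.313) and prp22-1 (-0.35 ± 0.13, adjusted p = 0.157) it did not pass.

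Around the pathway, 28 further genes of regulation, precursor supply, transport, breakdown and tRNA charging were listed, of which 23 were tested. With the shift 4 of these rose and 4 fell, beside 13.8% and 16.9% of all tested probes, so the counts are near the background. All 3 listed tRNA synthetase genes for these amino acids fell, VAS1 for valine (-0.97 ± 0.20, SE, limma adjusted p = 0.00176), CDC60 for leucine (-0.76) and ILS1 for isoleucine (-0.73). So did THR4, threonine synthase (-0.38), of 2 tested genes of precursor supply. Of 6 breakdown genes 2 rose, CHA1, the catabolic serine and threonine deaminase (0.90 ± 0.27, adjusted p = 0.0146), and ARO10, a decarboxylase of the Ehrlich pathway (0.96 ± 0.32, adjusted p = 0.028). The permease gene BAP2 (0.46) rose among 6 transport genes, and STP2 (0.42), a transcription factor of amino acid sensing, among 6 regulators. Neither LEU3 (-0.21 ± 0.09, adjusted p = 0.0821) nor GCN4 (-0.37 ± 0.16, adjusted p = 0.0835) passed. OAC1, the mitochondrial carrier that exports isopropylmalate, was -0.04 over all strains (adjusted p = 0.9). It was above its 23C value at all 5 times in SS330 and below it at 3 of 4 measured times in each mutant.

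In prp17 null 4 of the 23 listed genes were higher than in SS330 at 37C and 6 lower, beside 14.6% and 19.4% of all tested probes, again near the background. Of the regulators, STP2 (1.63 ± 0.18, SE, limma adjusted p = 4.5e-05), PTR3 (0.77) and STP1 (0.39) of the amino acid sensing route were higher, and GCN4 (-0.80 ± 0.20, adjusted p = 0.0063) and LEU3 (-0.29 ± 0.10, adjusted p = 0.0356) were lower. GCN4 was 0.41 in SS330 and -0.54 in prp17 null at 23C, so it differed by 0.95 before the shift. Of the transport genes OAC1 (-0.72 ± 0.20, adjusted p = 0.0131) and the permease genes BAP3 (-0.75) and TAT1 (-0.73) were lower. Of the breakdown genes ARO10 was lower (-1.30) and SFA1, an alcohol dehydrogenase, higher (0.48). The precursor and tRNA charging genes gave 0 calls among 5 tested (limma, 1 at an unadjusted p under 0.05).

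In prp17-1 GCN4 (-0.75 ± 0.20, SE, limma adjusted p = 0.0486) and CHA1 (-1.35 ± 0.29, adjusted p = 0.0207) were the 2 of 23 listed genes that differed from SS330, both lower. These stood where 3.17% of all tested probes passed, 2.22% lower and 0.948% higher. OAC1 was -0.70 ± 0.20 (adjusted p = 0.0659). In prp22-1 0 of 23 passed, beside 3.48% of all tested probes and so near the background, with 2 at an unadjusted p under 0.05. GCN4 was there -0.03 ± 0.20 and OAC1 -0.27 ± 0.20.

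The members did not move as 1 block over the 24 arrays. Among their 45 pairs Pearson's r ranged from -0.70 (BAT2 with LEU1) to 0.86 (ILV5 with LEU9), with a median of 0.12, as a description over arrays that share strains and times. ILV3 with BAT1 (0.85), BAT1 with LEU1 (0.85) and ILV3 with LEU1 (0.77) were also high, while LEU4 with LEU9 was 0.26 and BAT1 with BAT2 -0.40. Against the median profile of the members, BAT1 (0.87), LEU9 (0.87), ILV3 (0.84), LEU1 (0.75) and ILV5 (0.61) were closest, and ILV2 (0.01) and BAT2 (-0.31) farthest. Each member was itself part of the profile, so its r is not independent of its own values. Of 2313 named genes outside the list with values on all 24 arrays, those most like that profile were RPL27B (0.89), RPL13A (0.86), KAP122 (0.85), RPS16B (0.84) and RPL20A (0.84), of which 4 encode ribosomal proteins and KAP122 a nuclear transport receptor.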

How the data were processed

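Two-colour arrays measured total RNA in Cy5 against yeast genomic DNA in Cy3, per the labels. The values are the authors' deposited log2 ratios, with base, background correction, normalization and build not given in the sources used here. Base 2 was assumed, and the direction was read from CDC40 and heat shock genes. Each array was centred on its median over 6350 probes, of which 5527 name 1 gene and 823 are unnamed here. A probe was tested with values on at least 20 of 24 arrays and 3 of the 5 at 37C of each strain, which left 5487. Models were fitted by least squares over the arrays with a value and tested with limma 3.58.1 (R 4.3.3) moderated statistics, with p-values adjusted by Benjamini-Hochberg across every probe tested and a threshold of 0.05. The shift model had time as a factor and strain as a block. The strain, interaction and late models had time as a block, and all 24 arrays entered each. Fits were tested on simulated data. Alternatives were other centring, quantile normalization, filters, thresholds, blocks, times and leaving out arrays. Members and lists were chosen with earlier results of these data known. All members, LEU2, LEU3, GCN4, OAC1, CDC40 and PRP22 are named, with listed genes that passed for the shift or a strain at 37C and the 5 genes most like the members. HSP104 and SSA4 were added for the direction. HOM3 had no probe named for it, and SSY1, HOM2, THR1 and GAP1 had too few values. Figures were made in Python 3.11.15 with matplotlib 3.10.9.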

Additional observations from a re-analysis of the deposited data

Results flagged for a closer look

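The early to late difference of 3 members at 37C differed between prp17 null and SS330 by a test of that difference. It was -1.04 for LEU1, -1.15 for ILV6 and 0.91 for BAT2 on the log2 scale (prp17 null minus SS330). The prp17 null arrays at 60 and 120 min, on which these values rest, had an SD over probes of 0.927 and 1.05, against 0.451 and 0.418 in SS330, and the part of that spread in the result was not tested.

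Of 39 sets of 4 or 5 time points of a member in a strain at 37C, 2 held a time far from the others, where chance gives about 1 in 20 sets. ILV2 in SS330 was -0.022 at 15 min, with the other times at 0.29 to 0.41. ILV6 in prp17 null was -0.014 at 120 min, with the other times at 0.54 to 0.71. These are times of a course and not replicates.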

How the results depend on the processing

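The 5 falls with the shift kept their sign under every alternative run, and the count stayed at 5 when any 1 array was left out. It was 2 with only probes that have values on all arrays, where 3 members remain testable, 1 at 60 min alone and 7 under quantile normalization, where ILV2 and ILV6 also passed as lower. For prp17 null against SS330 the count of 4 became 2 under quantile normalization, 0 with complete probes only and 1 with only both strains' arrays, and it was 3 to 4 over single arrays left out. For prp17-1 the count of 2 became 1 without centring, when centred without ribosomal protein genes, with probes admitted at 12 arrays, with only both strains' arrays, at 60 and 120 min alone, and without the 4 arrays with the lowest share of values, a setting chosen after seeing the data. It became 0 with complete probes, at a threshold of 0.01, with trend and robust settings, without the time as a block and at 5 to 30 min alone, and was 0 to 2 over single arrays. For prp22-1 the count of 1 became 2 under quantile normalization, with only both strains' arrays and at 60 and 120 min alone. It became 0 with complete probes, at a threshold of 0.01, with trend and robust settings, without the time block and at 5 to 30 min alone, and was 0 to 2 over single arrays. It stayed at 1 without the 4 arrays, with LEU4 in place of ILV3. The late count of 3 for prp17 null became 0 at a threshold of 0.01 and with only both strains' arrays, and was 0 to 3 over single arrays. The interaction count for prp17 null went from 0 to 1 under quantile normalization and stayed at 0 over 22 single arrays left out. Leaving out a strain's own 23C array or that of SS330 could not be fitted. The other interaction and late counts stayed at 0 throughout. Under quantile normalization ILV2, not called for the shift at 0.03, was called at -0.40, and no called value changed sign under the alternatives run. Among all probes, the 1684 shift calls became 944 with complete probes, 986 at 0.01, 1061 without the strain block, 913 without the prp17-1 arrays and 993 without the prp17 null array at 23C. The 1863 for prp17 null became 1217 under quantile normalization, 880 with complete probes, 965 at 0.01, 769 with both strains' arrays and 643 at 5 to 30 min. The 174 for prp17-1 became 523, 109, 50, 309 and 54 in the same order, 77 without the time block and 273 without the 4 arrays, and fell as low as 77 over single arrays. The 191 for prp22-1 became 418 under quantile normalization, 79 with complete probes, 84 at 0.01 and 59 at 5 to 30 min, and 100 without the SS330 array at 60 min. The 245 late calls for prp17 null became 3 at 0.01 and 0 with both strains' arrays, and were 0 to 543 over single arrays. Quantile normalization turned the 0 interaction calls into 226, 98 and 175 for prp17 null, prp17-1 and prp22-1, and the late calls from 0 to 99 for prp17-1 and from 1 to 102 for prp22-1. It moved the share of prp17-1 calls that were higher from 29.9% to 40.2%, and no centring moved that of the late prp17 null calls from 31.0% to 41.7%. The labels give no replicate numbers, and arrays of different strains were paired by time, as a block in the strain fits. Without that block the counts were 3, 0 and 0 for prp17 null, prp17-1 and prp22-1. The causes were not tested. Depth is unknown, since the values carry no signal over background.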
